A study of Homo sapiens with 8 samples.

Results

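The 44 genes described here encode proteins that carry a cell into and through mitosis: CDK1 with its cyclins and phosphatases, the mitotic kinases, the spindle assembly checkpoint, the anaphase-promoting complex, the centromere and kinetochore, the spindle motors and the cleavage furrow. They were chosen by name, as textbook mitosis and spindle genes, but with earlier results of these data known. Symbols were mapped to the gene identifiers of the count files. All 44 were found among the 58688 genes listed, and each had at least 85 counts in every one of the 8 samples.

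The samples came from LM2 cells, a lung-metastatic derivative of the triple negative breast cancer line MDA-MB-231. In the first experiment the cells received the vehicle DMSO (2 samples) or Ponatinib, a multi-kinase inhibitor of which ABL is a well-known target, at 1 µmol/L for 6 h (2 samples). In the second, LM2 cells were transduced with lentivirus and selected with puromycin, and carried a scrambled shRNA (shCtrl), an shRNA against ABL1, an shRNA against ABL2, or both ABL shRNAs, with 1 sample each and 1 hairpin sequence for each gene, so that an effect of the hairpin apart from its target cannot be told apart from the knockdown. No shRNA sample received Ponatinib, and the DMSO samples carried no shRNA. The comparisons ask how the drug, and loss of either or both of its ABL targets, changed the transcriptome.

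Mitotic genes are switched on late in the cell cycle, peak in G2 and M phase, and fall as cells leave mitosis, so that a population in which more cells are in G2 and M holds more of these transcripts. In resting and G1 cells the MuvB core, bound to the pocket proteins, holds them off, and in S and G2 phase the same core, joined first by B-MYB and then by FOXM1, helps to turn them on. MuvB contacts the cell cycle genes homology region (CHR), and the trimeric factor NF-Y binds CCAAT boxes that often lie a short way upstream. In bulk RNA, fewer cells in mitosis and less RNA per mitotic cell cannot be told apart.

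Promoter windows, from 250 bases before to 50 bases after the annotated start, were given for 37 of the 44 genes in RefSeq sequence of GRCh38.p14. The letters of a CHR (TTTGAA or TTCGAA, either strand) were present in 28 of the 37 windows (75.7%), against 4539 of 27305 windows over all genes (16.6%). CCAAT on either strand was found in 29 of the 37 (78.4%), against 35.7% of all windows. Both were found in 24 (64.9%), against 6.58% of all windows. Of these CHR and CCAAT matches, 2 overlapped each other. The traits were shared with other mitosis genes, whose 64 windows held CHR letters in 39 cases (60.9%) and both motifs in 28 (43.8%). Windows of 38 DNA replication genes, which are switched on earlier in the cell cycle, held CHR letters in 2 cases (5.26%) and CCAAT in 24 (63.2%). A match of letters is a description of the window and not a measured binding site. Other letter forms of the CHR were not searched, so a window counted as without CHR letters may still hold one.

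The 150 bases before the start are printed below for 5 genes that differ in the results that follow: KIF20A, which had the largest rise after Ponatinib, CDC20, which had the largest fall, CCNB2, which rose with a textbook arrangement of boxes, PLK1, which did not pass the test, and ANLN, the one gene over 1.5-fold with ABL2 shRNA. All are on the plus strand and read 5′ to 3′, with CHR and CCAAT letters in capitals on either strand (ATTGG is CCAAT read on the other strand).
KIF20A (chr5:138178962-138179111): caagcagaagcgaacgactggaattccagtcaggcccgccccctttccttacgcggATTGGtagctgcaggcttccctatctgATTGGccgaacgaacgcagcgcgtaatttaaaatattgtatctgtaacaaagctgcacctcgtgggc
CDC20 (chr1:43358831-43358980): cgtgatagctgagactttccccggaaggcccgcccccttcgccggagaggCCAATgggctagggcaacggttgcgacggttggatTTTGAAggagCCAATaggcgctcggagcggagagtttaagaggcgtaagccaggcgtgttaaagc
CCNB2 (chr15:59104996-59105145): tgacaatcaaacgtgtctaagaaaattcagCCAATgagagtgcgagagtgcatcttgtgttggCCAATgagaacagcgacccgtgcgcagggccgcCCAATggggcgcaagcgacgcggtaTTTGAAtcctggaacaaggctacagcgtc
PLK1 (chr16:23678739-23678888): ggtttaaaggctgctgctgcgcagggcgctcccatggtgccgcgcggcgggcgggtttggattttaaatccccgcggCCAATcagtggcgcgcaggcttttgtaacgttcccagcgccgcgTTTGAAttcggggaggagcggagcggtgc
ANLN (chr7:36389712-36389861): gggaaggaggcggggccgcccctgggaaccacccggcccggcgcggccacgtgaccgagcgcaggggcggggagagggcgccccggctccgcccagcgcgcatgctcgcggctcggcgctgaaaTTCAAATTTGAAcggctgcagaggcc
The KIF20A window held 2 CCAAT boxes, beginning 94 and 67 bases before the start. Neither TTTGAA nor TTCGAA was found on either strand of the whole window, and other letter forms of the CHR were not searched. The CCNB2 window held a CHR 29 bases before the start, with 3 of its 4 CCAAT boxes in the printed stretch. PLK1 also had a CHR 29 bases before the start, with 1 CCAAT box 73 bases before it, while ANLN had 2 adjoining CHR matches and no CCAAT. In CDC20 a CHR 65 bases before the start lay between CCAAT boxes at 100 and 55 bases, and a second CHR, 178 bases before the start, lies outside the printed stretch.

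**Figure D1:**
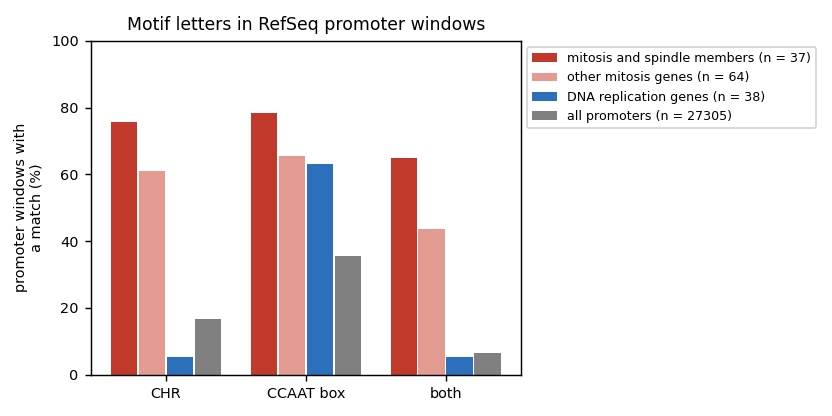
Share of RefSeq promoter windows (percent, y axis) that hold CHR letters, a CCAAT box, or both (x axis), for the mitosis and spindle genes, other mitosis genes, DNA replication genes and all promoters. CHR letters were in 75.7% of the 37 member windows, 60.9% of the windows of other mitosis genes and 16.6% of all windows. CCAAT was about as frequent in DNA replication genes (63.2%) as in the other mitosis genes (65.6%).

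Counts on genes ranged from 7568934 (Ponatinib sample 2) to 13010896 (ABL1 shRNA), and a count of 3 corresponds to at most 0.396 CPM. All levels below are read counts per gene scaled to library size with TMM factors (normalised CPM), separately in the 2 experiments. The breast cancer line was checked against 16 marker genes. VIM, the mesenchymal filament, was between 1880 and 3145 CPM, while PGR was at 0 in all 8 samples and CDH1, the epithelial cadherin, did not exceed 1.78 CPM. PGR, CDH1, ESR1 and ERBB2, all listed as low in triple negative cells, together summed to 54.6 to 67.8 CPM a sample. Nearly all of that sum was ESR1 or ERBB2. The summed level of the leukocyte markers PTPRC, CD3E and CD68 did not exceed 0.651 CPM. The fibroblast markers COL1A1, COL3A1 and DCN summed to 62.4 to 84.0 CPM in the first experiment and to 411 CPM in shCtrl, 228 with ABL2 shRNA, 139 with both shRNAs and 99.7 with ABL1 shRNA. Nearly all of that sum was COL1A1, and DCN did not exceed 0.35 CPM. Levels of the endothelial markers PECAM1 and VWF summed to 2.47 to 4.35 CPM in the first experiment and to 21.6 to 40.3 CPM in the second. The keratins KRT8 and KRT18 summed to 705 CPM in shCtrl, to 1119 and 439 CPM after single knockdown of ABL1 and of ABL2, to 904 CPM after the double knockdown, and to 396 to 478 CPM in the first experiment.

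In the DMSO samples the 44 genes together took 1.22% and 1.19% of the normalised counts. Per kilobase of exon, the highest DMSO levels were those of UBE2C, the ubiquitin-conjugating enzyme of the anaphase-promoting complex (190.0 CPM per kb), CCNB1, the cyclin that activates CDK1 (184 CPM per kb), and TPX2, the spindle protein that activates Aurora A (173 CPM per kb). The lowest were SPC25 of the NDC80 kinetochore complex (15.2), CDC25C, the phosphatase that removes inhibitory phosphates from CDK1 (10.7), and HMMR, a spindle and hyaluronan-binding protein (2.93 CPM per kb). Exon lengths were taken from GENCODE, which may differ from the annotation that was counted.

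After 6 h of Ponatinib, 14 of the 44 mitosis and spindle genes rose and 3 fell at an adjusted p under 0.05, and 27 did not pass the test (edgeR quasi-likelihood test, adjusted over 16031 genes). Over all genes tested, 15.0% rose and 15.7% fell by the same rule. The changes were small: the log2 fold changes ran from -0.36 for CDC20 to 0.46 for KIF20A, with a median of 0.08 against -0.0047 over all genes, and none reached 2-fold, the size passed with unadjusted p under 0.05 by 5.48% of all genes. In 25 of the 44 genes both Ponatinib samples lay above both DMSO samples, in 5 both lay below, and in 14 the groups overlapped. The corresponding shares over all genes were 32.1% and 32.8%. Without DMSO sample 1, and likewise without DMSO sample 2, fewer of the 44 genes passed, and fewer of all genes did too. Those fits take the lone DMSO sample to vary like the Ponatinib pair. With 2 samples against 2 an exact permutation test of a single gene cannot go below p = 0.333, so the calls rest on the spread shared across genes.

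**Figure D2:**
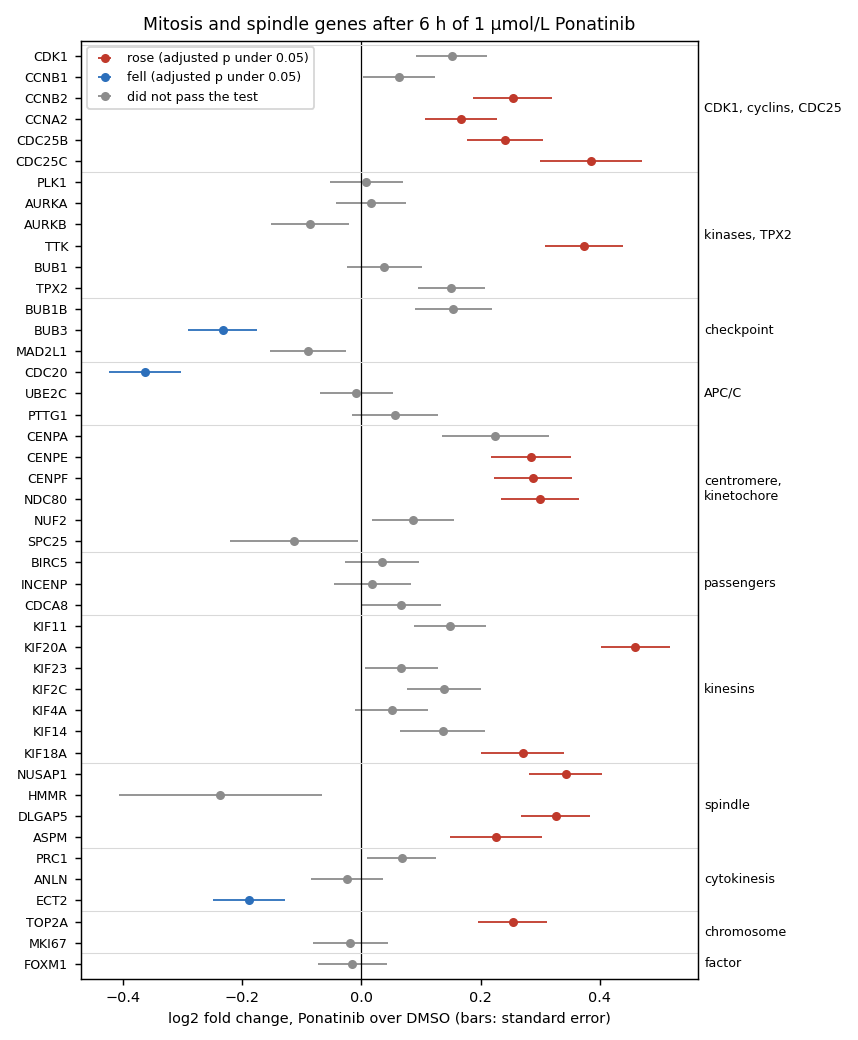
Log2 fold change of each of the 44 genes after Ponatinib over DMSO (x axis, with the standard error as a bar), grouped by role (y axis), with 2 samples a group. Genes that passed the edgeR test are coloured, and they run from -0.36 for CDC20 to 0.46 for KIF20A.

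The CDK1 group drives entry into mitosis. CDK1 is its kinase, cyclins A2, B1 and B2 are its activating partners, and CDC25B and CDC25C are the phosphatases that switch it on. Of its 6 genes 4 rose (15.0% of all genes did): CDC25C, CCNB2, CDC25B and CCNA2. CDC25C stood at 34.7 and 36.9 CPM in the DMSO samples and at 47.7 and 45.4 CPM with Ponatinib, a log2 fold change of 0.39 (SE 0.09, adjusted p = 0.0033). Both treated samples were above both controls. CCNB2, whose promoter is printed above, was 136 and 138 CPM with DMSO and 171 and 155 CPM with Ponatinib (log2 fold change 0.25, SE 0.07, adjusted p = 0.0092). CDC25B changed by a log2 value of 0.24 (adjusted p = 0.0094) and CCNA2 by 0.17 (adjusted p = 0.048), the call nearest to the threshold. CCNB1, the main mitotic cyclin, was 458 and 436 CPM with DMSO and 481 and 453 CPM with Ponatinib, so the groups overlapped (log2 fold change 0.06, SE 0.06, adjusted p = 0.47). CDK1 itself lay higher in both treated samples, 252 and 263 CPM against 230 and 233, without passing the test (adjusted p = 0.071).

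The mitotic kinases act downstream of CDK1 on centrosomes, kinetochores and the midzone. Of the 6 genes of the group 1 rose, near the 15.0% of all genes. That gene was TTK, the kinase (also called MPS1) that starts the spindle assembly checkpoint, at 87.8 CPM in both DMSO samples and 111 and 117 CPM with Ponatinib (log2 fold change 0.37, SE 0.07, adjusted p = 0.00054). PLK1, the Polo-like kinase of centrosome maturation and mitotic exit, was 167 CPM in both controls and 169 and 168 CPM in the treated samples (log2 fold change 0.01, SE 0.06, adjusted p = 0.94). Both treated values of PLK1 lay only marginally above both control values, so the 25 genes counted as above include changes near nil. AURKA, the centrosomal Aurora kinase, had a log2 fold change of 0.02 and AURKB, the centromeric one, of -0.09, each with SE under 0.07, and BUB1, which marks kinetochores for the checkpoint, of 0.04. TPX2 was higher in both treated samples (696 and 686 CPM against 624 and 621) and missed the threshold at adjusted p = 0.054.

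The checkpoint effectors BUB1B, BUB3 and MAD2L1 assemble the complex that withholds CDC20 from the anaphase-promoting complex until every chromosome is attached. BUB3, the WD-repeat protein that recruits BUB1 and BUB1B, fell from 453 and 448 CPM to 390 and 376 CPM, by 0.23 on the log2 scale (SE 0.06, adjusted p = 0.0068). BUB1B and MAD2L1 did not pass the test, with log2 fold changes of 0.15 and -0.09. CDC20, the activator of the anaphase-promoting complex and the target of that checkpoint, was the gene that fell most. Its level was 238 and 232 CPM with DMSO and 182 and 184 CPM with Ponatinib, a fall of 1.29-fold (log2 fold change -0.36, SE 0.06, adjusted p = 0.00031). The groups did not overlap. UBE2C, which builds the first ubiquitins on the complex's substrates, and PTTG1, the securin that holds separase in check, had log2 fold changes of -0.01 and 0.06, with overlapping groups.

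At the centromere and kinetochore 3 of 6 genes rose (15.0% of all genes did). CENPF, a large fibrous corona protein, was 757 and 733 CPM with DMSO and 853 and 969 CPM with Ponatinib (log2 fold change 0.29, SE 0.07, adjusted p = 0.0037). The 2 treated samples differed from each other by more than the controls did, but both lay above them. CENPE, the kinesin that carries chromosomes to the spindle equator, was 226 and 214 CPM against 255 and 282 CPM (0.28, adjusted p = 0.0045). NDC80, which grips the microtubule end, was 86.6 and 87.5 CPM against 108 and 106 CPM (0.30, adjusted p = 0.0027). Its complex partners NUF2 (log2 fold change 0.09) and SPC25 (-0.11) did not pass the test, nor did CENPA, the centromeric histone, at 0.22 (SE 0.09, adjusted p = 0.072). The chromosomal passengers BIRC5 (survivin), INCENP and CDCA8 (borealin), which hold AURKB at centromeres and the midzone, had log2 fold changes of 0.03, 0.02 and 0.07. In all 3 passenger genes the groups overlapped.

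All 7 kinesins had both Ponatinib samples above both DMSO samples (32.1% of all genes did), some by very little. By the test 2 of them rose, against 15.0% of all genes. KIF20A, the midzone kinesin (MKLP2) that carries the passenger complex in cytokinesis, rose more than any other of the 44 genes, from 271 and 269 CPM to 369 and 374 CPM. That was 1.38-fold (log2 fold change 0.46, SE 0.06, adjusted p = 2.7e-05). KIF18A, which dampens chromosome movements at microtubule plus ends, was 75.3 and 75.8 CPM with DMSO and 88.2 and 94.4 CPM with Ponatinib (0.27, SE 0.07, adjusted p = 0.008). KIF11 (Eg5), which pushes spindle poles apart, KIF2C (MCAK), which takes microtubules apart, KIF14, KIF23 and the chromokinesin KIF4A had log2 fold changes between 0.05 and 0.15 and did not pass.

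Of the spindle-associated genes 3 of 4 rose (15.0% of all genes did). NUSAP1, which bundles microtubules around chromosomes, was 235 and 248 CPM with DMSO and 309 and 303 CPM with Ponatinib (log2 fold change 0.34, SE 0.06, adjusted p = 0.00055). DLGAP5 (HURP), which stabilises kinetochore fibres, was 280 and 281 CPM against 349 and 353 CPM (0.33, SE 0.06, adjusted p = 0.00059). ASPM, a spindle pole protein, changed by 0.23 (SE 0.08, adjusted p = 0.038). HMMR, the least abundant of the 44 genes in these 4 samples with 85 to 125 counts in each, had a log2 fold change of -0.24 with an SE of 0.17 and overlapping groups, so a change of this size was not detectable at its depth. Among the cytokinesis genes, ECT2, the exchange factor that activates RhoA at the furrow, fell from 448 and 427 CPM to 374 and 394 CPM (by 0.19 on the log2 scale, SE 0.06, adjusted p = 0.027). PRC1, the midzone bundler, and ANLN (anillin), the furrow scaffold, did not pass, at 0.07 and -0.02.

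TOP2A, the topoisomerase that untangles sister chromatids, rose from 1037 and 1008 CPM to 1178 and 1261 CPM (log2 fold change 0.25, SE 0.06, adjusted p = 0.0039). MKI67, the Ki-67 protein that coats mitotic chromosomes, was 1137 and 1141 CPM with DMSO and 1057 and 1192 CPM with Ponatinib, and the treated samples lay on either side of the controls (log2 fold change -0.02, adjusted p = 0.86). FOXM1, the transcription factor of the late cell cycle, was 376 and 377 CPM against 365 and 380 CPM (-0.02, SE 0.06, adjusted p = 0.88). Summed over the 44 genes, the levels were 12160 and 11943 CPM with DMSO and 12752 and 13204 CPM with Ponatinib. Both treated sums were above both control sums. Among the 28 genes with CHR letters (TTTGAA or TTCGAA) 8 rose and 2 fell, with a median log2 fold change of 0.08. Of the 9 genes whose windows lack these letters 5 rose and 0 fell, with a median of 0.17. Over all genes tested 15.0% rose and 15.7% fell. Other letter forms of the CHR were not searched, so this split cannot compare genes with and without a CHR.

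**Figure D3:**
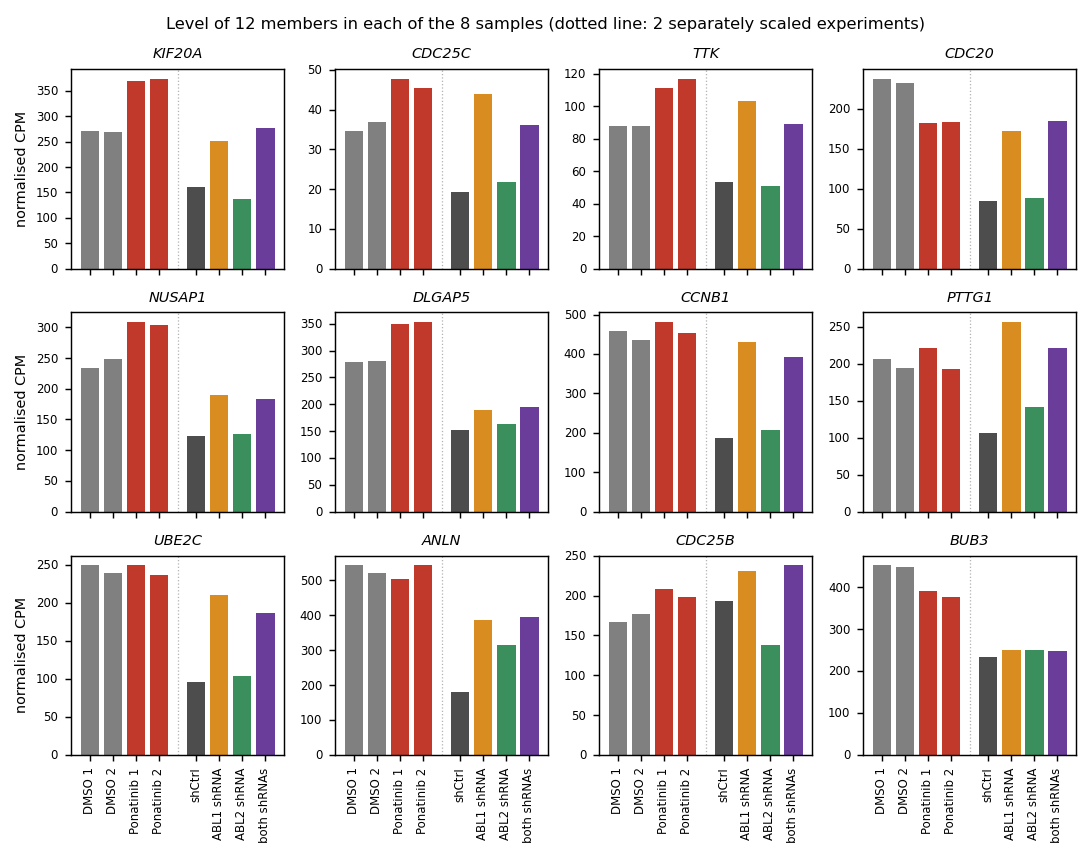
Normalised CPM (y axis, from 0) of 12 of the genes in each of the 8 samples (x axis), with 1 bar a sample. The dotted line parts the 2 separately scaled experiments. KIF20A is higher in both Ponatinib samples (369 and 374 CPM) than in both DMSO samples (271 and 269 CPM), CDC20 is lower, and with ABL1 shRNA PTTG1 is 256 CPM against 106 CPM in shCtrl.

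Other lists of the cell cycle were read beside these genes. Of 80 other mitosis genes 15 rose (18.8%) and 11 fell (13.8%) after Ponatinib, close to the 15.0% and 15.7% of all genes, with a median log2 fold change of 0.04. The largest rises were those of CENPC, the inner kinetochore protein (0.47, SE 0.10, adjusted p = 0.0019), the cytokinesis kinase CIT (0.45) and the kinetochore subunit SPC24 (0.40), and the largest falls those of the checkpoint protein MAD1L1 (-0.49), the kinetochore subunit MIS12 (-0.46) and the tubulin TUBB4B (-0.42). Of 45 DNA replication genes 20 fell (44.4%, against 15.7% of all genes) and 25 did not pass the test, with a median of -0.22. Of these UHRF1, which helps to copy DNA methylation, went from 209 and 208 CPM to 108 and 119 CPM (log2 fold change -0.88, SE 0.07, adjusted p = 1.4e-07), the replication initiation factor MCM10 changed by -0.75 and the flap endonuclease FEN1 by -0.64. In 36 of the 45 replication genes both treated samples lay below both controls, against 5 of the 44 mitosis and spindle genes and 32.8% of all genes. No test of the difference between the lists was made.

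**Figure D4:**
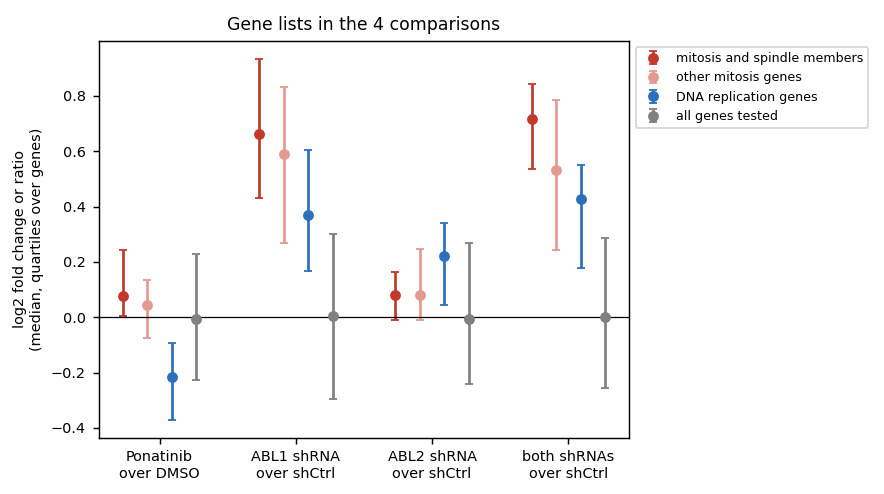
Median log2 fold change or log2 ratio (y axis, with the quartiles over genes as bars) of the mitosis and spindle genes, other mitosis genes, DNA replication genes and all genes tested, in the 4 comparisons (x axis). After Ponatinib the DNA replication genes have a median of -0.22 and the mitosis and spindle genes of 0.08, and with ABL1 shRNA the medians are 0.37 and 0.66.

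In the shRNA experiment each arm was 1 sample, so its differences have no replicate check, no p-value is given, and the intervals below are exact 95% binomial intervals that cover counting error only. The targeted genes were read first. ABL1 was 190.0 CPM in shCtrl, 72.9 CPM after its own knockdown, 203 CPM in the ABL2 knockdown and 109 CPM in the double knockdown. ABL2 was 236 CPM in shCtrl, 213 CPM in the ABL1 knockdown, 93.7 CPM after its own and 148 CPM in the double knockdown. Each gene was lowest in the library labelled with its own shRNA alone, at log2 ratios of -1.38 and -1.34, and the library labelled with both shRNAs kept more of each transcript (-0.80 for ABL1 and -0.68 for ABL2). Inside 2 of these files, those of the scrambled and of the ABL1 hairpin, the header cell carries the other file's condition, and the GEO labels were followed here. After Ponatinib ABL2 fell, by 1.02 on the log2 scale, and ABL1 rose by 0.19 (adjusted p = 8.6e-08 and 0.029).

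With ABL1 shRNA all 44 mitosis and spindle genes were higher than in shCtrl, 27 of them over 1.5-fold and none lower. Over all 16172 genes compared, 50.4% were above shCtrl by any amount, 12.7% were over 1.5-fold higher and 11.6% over 1.5-fold lower. The median log2 ratio of the 44 genes was 0.66 (0.0038 over all genes), and 7 were over 2-fold higher, a size reached by 4.94% of all genes. PTTG1 had the highest ratio, with 106 CPM in shCtrl and 256 CPM with ABL1 shRNA (2.42-fold, interval 2.26 to 2.58). CCNB1 was 186 and 429 CPM (2.30-fold, interval 2.19 to 2.42), CDC25C 19.4 and 43.9 CPM (2.27-fold, interval 1.94 to 2.66) and UBE2C 96.3 and 211 CPM (2.19-fold, interval 2.04 to 2.35). These 4 genes, a securin, a cyclin, a phosphatase of CDK1 and a ubiquitin-conjugating enzyme, act around the onset of anaphase and entry into mitosis. At the low end stood BUB3 (234 and 251 CPM, 1.07-fold, interval 1.02 to 1.13), CDC25B (194 and 231 CPM, 1.19-fold), KIF23 (86.5 and 105 CPM, 1.21-fold) and DLGAP5 (152 and 189 CPM, 1.24-fold).

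With both shRNAs all 44 genes were again above shCtrl (50.1% of all genes were), 30 of them over 1.5-fold (12.1% of all genes) and none over 1.5-fold lower (9.71% of all genes). The median log2 ratio was 0.72, and 4 genes were over 2-fold higher (4.77% of all genes): ANLN, CDC20, CCNB1 and PTTG1. ANLN was 179 CPM in shCtrl and 395 CPM with both (2.21-fold, interval 2.10 to 2.33), and CDC20 was 84.9 and 185 CPM (2.18-fold, interval 2.02 to 2.35). CDC20 thus stood above its control in this library and below it after Ponatinib, in experiments with different controls. FOXM1 was 139 CPM in shCtrl and 234 CPM with both (1.68-fold, interval 1.58 to 1.79), against 177 CPM with ABL1 shRNA. The genes least above shCtrl were BUB3 (1.06-fold), CDC25B (1.23-fold), KIF11 (145 and 181 CPM, a log2 ratio of 0.32) and ECT2 (1.28-fold). BUB3 was between 249 and 251 CPM in all 3 ABL shRNA libraries, while ECT2 was 299 CPM with ABL1 shRNA, 239 CPM with ABL2 shRNA and 299 CPM with both.

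With ABL2 shRNA 1 of the 44 genes was over 1.5-fold higher (11.9% of all genes), none over 2-fold (4.76%) and none over 1.5-fold lower (8.49%). The median log2 ratio was 0.08 (-0.0062 over all genes), 32 genes lay above shCtrl (49.3% of all genes did) and 12 below; with total-count scaling CCNA2 and NUF2 changed sides, and the counts were 34 and 10. The gene over 1.5-fold was ANLN, at 179 CPM in shCtrl and 315 CPM with ABL2 shRNA (1.76-fold, interval 1.67 to 1.86). FOXM1 followed at 139 and 189 CPM (1.36-fold, interval 1.27 to 1.45) and PTTG1 at 106 and 141 CPM (1.33-fold, interval 1.23 to 1.43), while HMMR had an interval, 0.95 to 1.61, that includes no difference. At the other end CDC25B was 194 CPM in shCtrl and 138 CPM with ABL2 shRNA (0.71-fold, interval 0.67 to 0.76). CENPE was 152 and 126 CPM (0.83-fold), BUB1 101 and 84.3 CPM (0.84-fold) and KIF20A 161 and 137 CPM (0.85-fold), and the upper bounds of all 3 intervals were below 1. CDC25B was therefore the gene of the 44 furthest below shCtrl in this library, although it was 231 and 238 CPM in the ABL1 and double shRNA libraries.

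**Figure D5:**
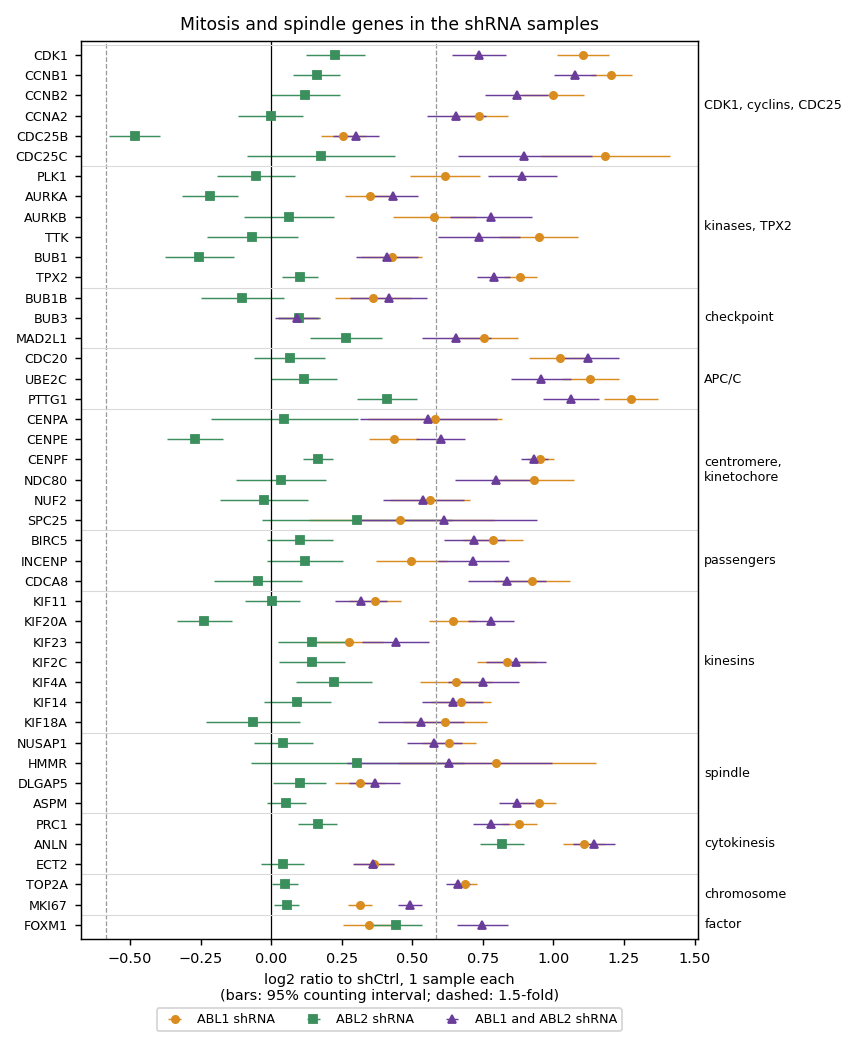
Log2 ratio of each of the 44 genes to shCtrl (x axis) in the 3 ABL knockdowns, 1 sample each, with 95% counting intervals as bars and 1.5-fold as dashed lines. The ABL1 and double shRNA points all lie above 0, and ANLN at 0.82 is the only ABL2 shRNA point beyond the dashed lines.

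The 3 knockdowns share the same shCtrl library, which was the lowest of the 4 libraries for 32 of the 44 genes (29.7% of all genes) and never the highest, with ABL2 shRNA the lowest for the other 12 (26.3% of all genes). The highest library was ABL1 shRNA for 27 genes (26.6% of all genes) and both shRNAs for 17 (17.8% of all genes). With the ABL2 shRNA library as the reference and shCtrl left out, an alternative chosen after seeing the data, 43 of the 44 genes were higher with ABL1 shRNA, 26 of them over 1.5-fold (10.0% of all genes), with a median log2 ratio of 0.67. The same count, 26 over 1.5-fold (7.59% of all genes), was found with both shRNAs, with a median of 0.62. Between the double and the ABL1 shRNA library the median was -0.02, and no gene differed by 1.5-fold. In sum the 44 genes took 6471 CPM in shCtrl, 6881 CPM with ABL2 shRNA, 10495 CPM with ABL1 shRNA and 10447 CPM with both, and the DMSO sums above were higher than all 4. The scale was set separately in the 2 experiments. The keratin sum followed the same split as the 44 genes (439 and 705 CPM against 904 and 1119) and COL1A1 the opposite one (227 and 407 CPM against 139 and 99.2), and their part in the result was not tested.

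Other mitosis genes were over 1.5-fold higher in 41 of 80 cases in the ABL1 knockdown, 2 in the ABL2 knockdown and 36 in the double knockdown, with median log2 ratios of 0.59, 0.08 and 0.53. DNA replication genes were over 1.5-fold higher in 13, 1 and 9 of 45 cases, with medians of 0.37, 0.22 and 0.43. Over all genes the shares were 12.7%, 11.9% and 12.1%. In the ABL2 knockdown the other mitosis genes (2.5%) and the replication genes (2.22%) were below that share. Of the 44 genes, the 28 with CHR letters had median log2 ratios of 0.64 (ABL1 knockdown), 0.06 (ABL2 knockdown) and 0.65 (double knockdown). The 9 without TTTGAA or TTCGAA had 0.74, 0.06 and 0.78, and they may hold letter forms of the CHR that were not searched. By role, the largest medians with ABL1 shRNA were those of the anaphase-promoting complex group (1.13 over CDC20, UBE2C and PTTG1) and of the CDK1 group (1.05 over 6 genes), and the smallest, among groups of 3 or more genes, that of the checkpoint group (0.36). With both shRNAs the anaphase-promoting complex group had 1.06 and the CDK1 group 0.80, and the checkpoint group 0.42.

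Exons of 15 of the 44 genes overlap those of another listed gene in GENCODE, by 1892 bases for PRC1 and its antisense gene, 782 for FOXM1, 553 for PLK1, 352 for NUSAP1 and less for the others, CDC25C, CCNA2 and KIF20A among them. The strand setting of the counting is not given in the sources used here, so reads of such pairs may have been left out as ambiguous or assigned to either gene.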

How the data were processed

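RNA from LM2 cells was sequenced on an Illumina HiSeq instrument in 8 samples (DMSO and Ponatinib 2 each, 4 shRNA arms 1 each). The authors mapped reads to hg38 with Bowtie/TopHat and deposited raw counts per gene, made with HTSeq 0.6.0 per the submitters' processing notes. The annotation release and the strand setting are not given in the sources used here. The counter's summary rows, present only in the shRNA files, were left out (9.48% to 9.90% of reads without a feature and 6.12% to 6.32% ambiguous). Depth was 7568934 to 13010896 counts, and 54836 of 58688 identifiers had a symbol.

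For Ponatinib against DMSO, the quasi-likelihood test of edgeR 4.0.16 (R 4.3.3) was run (TMM, filterByExpr, prior count 0.125) over 16031 genes, with Benjamini-Hochberg adjustment and a threshold of 0.05. The shRNA arms have no replicates, so ratios of TMM-normalised CPM were formed and called over 1.5-fold. Nothing says that replicates were separate cultures, so p-values measure only the spread between these samples. Same-numbered samples did not deviate together (r = -0.02 over 9421 genes), and both replicate pairs differed by more than sampling noise (chi-square per degree of freedom 1.44 and 3.12). PCR duplicates were not measured here, and the intervals of the shRNA ratios cover counting error only. Alternatives were DESeq2 1.42.0 size factors and test, total-count scaling, filters, the replicate block, leaving out each sample, the study's rule and an 8-sample fit. Scripts were tested on simulated data.

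The genes and lists were chosen with earlier results of these data known. Genes with values in every sample were named by rule: the 12 largest called changes after Ponatinib, the 4 highest and 4 lowest ratios in each knockdown, the 3 highest and 3 lowest DMSO levels per kb, 1 gene of each role group, and the 3 largest called rises and falls of each other list. Other members were named after their values were seen. Gene positions and exon lengths are from GENCODE v44 and promoter sequences from RefSeq (GRCh38.p14).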

Additional observations from a re-analysis of the deposited data

How the results depend on the processing

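After Ponatinib the 14 higher and 3 lower genes became 15 and 3 with DESeq2's size factors, 20 and 2 with total-count scaling, 13 and 3 with no filter, 11 and 2 with DESeq2's Wald test, and 0 and 0 with the study's rule (fold over 2 and unadjusted p under 0.05). Leaving out 1 sample gave 6 to 19 higher and 1 to 4 lower, with medians of 0.0882 to 0.104, and total-count scaling gave a median of 0.122. CDC20, DLGAP5, KIF20A, NUSAP1 and TTK passed in all 10 settings that refit the test, CCNA2 lost its call in 5 and ECT2 in 4. The cause was not tested. Labels give DMSO and Ponatinib the same replicate numbers: with the replicate block 14 were higher and 3 lower, with a median of 0.0761, and CENPA also passed (adjusted p = 0.049).

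Total-count scaling moved the medians to 0.688 (ABL1 knockdown), 0.123 (ABL2 knockdown) and 0.765 (double knockdown). It also moved the medians over all genes, to 0.028, 0.037 and 0.047. At 2-fold, 7, 0 and 4 genes were higher. At the lowest fold tried, which was under 1.5, 3 of the 44 were higher and 1 lower in the ABL2 knockdown. The share of all genes past that fold is not given here. Already at 1.5-fold 11.9% of all genes were higher and 8.49% lower in that knockdown, so 3 and 1 of 44 lie below the background. An edgeR fit of all 8 samples, with the spread taken from the DMSO and Ponatinib pairs, called 42 higher with ABL1 shRNA (10.6% of all genes), 3 higher and 1 lower with ABL2 shRNA (7.89% and 7.68%), and 43 higher with both (8.43%). Those calls set single libraries against a spread borrowed from the other experiment and support nothing here. After Ponatinib none of the 17 called genes changed sign under any alternative run, while 9 of the 27 others did under at least 1. ANLN, FOXM1, MKI67 and UBE2C did so with total-count scaling.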

Other observations

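The regulators of these genes formed a further list of 22 genes: the MuvB core, B-MYB, the E2F and pocket protein families, and the CDK inhibitors. After Ponatinib 5 of them rose and 7 fell, against 15.0% and 15.7% of all genes, with a median log2 fold change of -0.01. CDKN1C, the CDK inhibitor p57, was 6.82 and 8.41 CPM with DMSO and 25.2 and 23.8 CPM with Ponatinib (log2 fold change 1.70, SE 0.14, adjusted p = 3.6e-07). CDKN1B (p27) was 71.9 and 74.7 CPM against 114 and 120 CPM (0.67, adjusted p = 2.5e-06), and CDKN2C (p18) rose by 0.51. Among the E2F factors, E2F3 fell from 96.7 and 88.1 CPM to 53.2 and 56.6 CPM (by 0.76 on the log2 scale, SE 0.08, adjusted p = 2.7e-06), E2F5 by 0.76 and E2F4 by 0.55. MYBL2 (B-MYB) fell by 0.20 (adjusted p = 0.048), and CDKN1A (p21) did not pass (log2 fold change 0.14, adjusted p = 0.17).

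In the shRNA experiment 3 of these 22 genes were over 1.5-fold higher and 2 lower with ABL1 shRNA, 4 and 3 with ABL2 shRNA, and 1 and 3 with both. Over all genes the shares higher and lower were 12.7% and 11.6%, 11.9% and 8.49%, and 12.1% and 9.71%, so the counts for ABL1 shRNA are near the background. CDKN1C was 24.9 CPM in shCtrl and 11.1, 12.5 and 12.3 CPM in the ABL1, ABL2 and double knockdowns. MYBL2 was 52.4 CPM in shCtrl, 37.3 CPM with ABL1 shRNA, 53.4 CPM with ABL2 shRNA and 50.2 CPM with both.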
